A study of Caenorhabditis elegans with 12 samples.

Results

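The mitochondrial ribosomal protein genes of Caenorhabditis elegans were followed in whole L4 larvae of 2 let-7 mutants and their control strains. The genes were taken by name, as every row of both count tables called mrpl or mrps with a number. This gave 65 genes, out of 46711 rows for U13A and 46722 for U18A. The mrpl names (39 genes) belong to the large subunit of the mitochondrial ribosome and the mrps names (26 genes) to the small subunit. All 65 had enough reads to be tested in both tables.

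Mitochondria have a ribosome of their own, which translates the few proteins encoded by mitochondrial DNA, all in worms subunits of the respiratory chain and of ATP synthase. Its proteins are encoded in the nucleus, made on cytosolic ribosomes and imported, and they assemble on ribosomal RNAs made inside the organelle. The small subunit reads the mRNA and the large subunit joins amino acids. In C. elegans, lowering mrps-5 or other members by RNA interference extends lifespan and switches on the mitochondrial unfolded protein response.

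The U13A mutant was strain VT3878, lin-41(tn1541ma480);let-7(ma432), and its control was strain DG3913, lin-41(tn1541). The labels describe the mutant as having lin-41 downstream excluded, and the tn1541 allele is carried by mutant and control alike. The ma480 part of the lin-41 genotype is carried by the mutant only. The U13A comparison thus changes lin-41 and let-7 together, and their parts cannot be told apart. The U18A mutant was strain VT3797, maIs105;let-7(ma435), and its control was strain VT1367, maIs105, so the maIs105 transgene is also shared. U13A and U18A name substitutions at positions 13 and 18 of let-7, a microRNA that times larval development and acts on lin-41. There were 3 libraries a group, A to C, of rRNA-depleted RNA from mid L4 larvae grown for 45 h at 20 °C and washed of bacteria. The labels do not say that the letters were separate cultures, so p-values measure the spread between these samples, which may be technical. Whole animals were sequenced, so fewer cells of a type and less RNA per cell cannot be told apart.

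U13A libraries totalled 16659340 to 21414080 counts and U18A libraries 6107652 to 9607239. The share of counts in 3 entries was 65.6 to 76.8% for U13A and 0.527 to 1.01% for U18A. The 65 genes drew 0.0262 to 0.0625% of all U13A counts and 0.172 to 0.197% of all U18A counts, so their levels are compared within a table only. A single gene had between 3 and 1274 counts in a library, with a median of 95.5 for U13A and 148 for U18A. The control library DG3913 C stood apart from its group mates, with the lowest scaling factor of its table (0.577, against 1.02 to 1.22 in the other 5) and the lowest share of counts in the 65 genes. Counts of calls and medians over the genes that use it are therefore given with and without it, as are single genes whose call, sign or overlap rested on it. Levels are in CPM, counts scaled to a common library size with TMM factors, and between genes in CPM per kilobase of annotated exon, which could be set for 64 of the 65. No marker of the sperm, germline, hypodermis, intestine, body muscle, neuron or pharynx lists was at 0 in any library.

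Transcript levels differed widely between genes of the same particle, and the order was similar in both tables. In CPM per kilobase over the 6 libraries of a table, the highest gene stood 46.3-fold above the lowest for U13A and 30.6-fold for U18A. Large and small subunit genes had close medians, 6.83 and 6.22 CPM per kilobase for U13A and 27.2 and 24.2 for U18A. Across the 64 genes, Spearman's rho between the levels in the 2 tables was 0.98, given as a description since both share the exon lengths.

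The most abundant transcript per kilobase of exon was mrps-28, of a small subunit protein, and by this measure it stood far above every other gene. Its level was 70.4 ± 5.21 CPM per kilobase in U13A mutants and 65.2 ± 2.59 in their controls, and 205 ± 28.5 in U18A mutants and 209.6 ± 4.56 in their controls (mean ± SD, n = 3 each). The next small subunit genes over the 6 libraries of the U18A table were mrps-16 at 59.4 ± 4.27, mrps-5 at 50.9 ± 2.12, mrps-33 at 41.7 ± 6.15 and mrps-25 at 36 ± 3.4 CPM per kilobase. The same 5 genes led in the same order in the U13A table, where mrps-33 and mrps-25 lay within 1 SD of each other (11.1 ± 1.34 and 11 ± 0.669).

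In the large subunit mrpl-36, mrpl-37 and mrpl-15 led in both tables. Their levels in the U18A table were 89.3 ± 4.04, 81.7 ± 6.62 and 74.5 ± 7.42 CPM per kilobase, followed by mrpl-51 at 71.6 ± 6.21 and mrpl-38 at 69.7 ± 4.47. In the U13A table they were 28.4 ± 3.0 for mrpl-36, 26.9 ± 1.13 for mrpl-37, 25.2 ± 5.22 for mrpl-15, 18.9 ± 2.27 for mrpl-38 and 17.4 ± 4.24 for mrpl-51. The order of mrpl-38 and mrpl-51 differs between the tables, and their difference is within 1 SD in each. The protein of mrpl-36 is in bacteria one of the smallest of the ribosome, and mrpl-36 has the shortest exon length of the 64 genes, 309 bp. The human counterparts of mrpl-37, mrpl-38 and mrpl-51 are proteins that the bacterial ribosome lacks.

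The least abundant transcripts per kilobase of exon in both tables were those of the small subunit genes mrps-31 and mrps-7. In the large subunit mrpl-1 and mrpl-55 were lowest. mrps-31 has the longest exon length of the 64 genes, 2164 bp. Not divided by length, it had a mean of 15.7 CPM in U18A mutants, above the 5.88 CPM of mrps-7. In the U18A table mrps-31 had 6.78 ± 0.920, mrps-7 had 7.37 ± 0.686 and mrps-10 had 7.98 ± 1.57 CPM per kilobase over 6 libraries, which overlap within 1 SD. The lowest large subunit genes there were mrpl-55 at 8.57 ± 1.13, mrpl-1 at 8.81 ± 0.852 and mrpl-46 at 11.9 ± 0.818. In the U13A table mrps-31 had 1.46 ± 0.216, mrps-7 had 1.54 ± 0.422, mrps-21 had 1.76 ± 0.683, mrps-10 had 1.88 ± 0.533, mrpl-1 had 1.92 ± 0.254, mrpl-55 had 2.1 ± 0.533 and mrpl-18 had 3.02 ± 0.564. The bacterial counterpart of mrpl-1 forms the mobile stalk by which spent tRNA leaves, and that of mrps-7 organises the head of the small subunit. The exons of mrpl-1 share 276 bp with emc-6 on the same strand, and how reads there were assigned is not given in the sources used here.

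**Figure D1:**
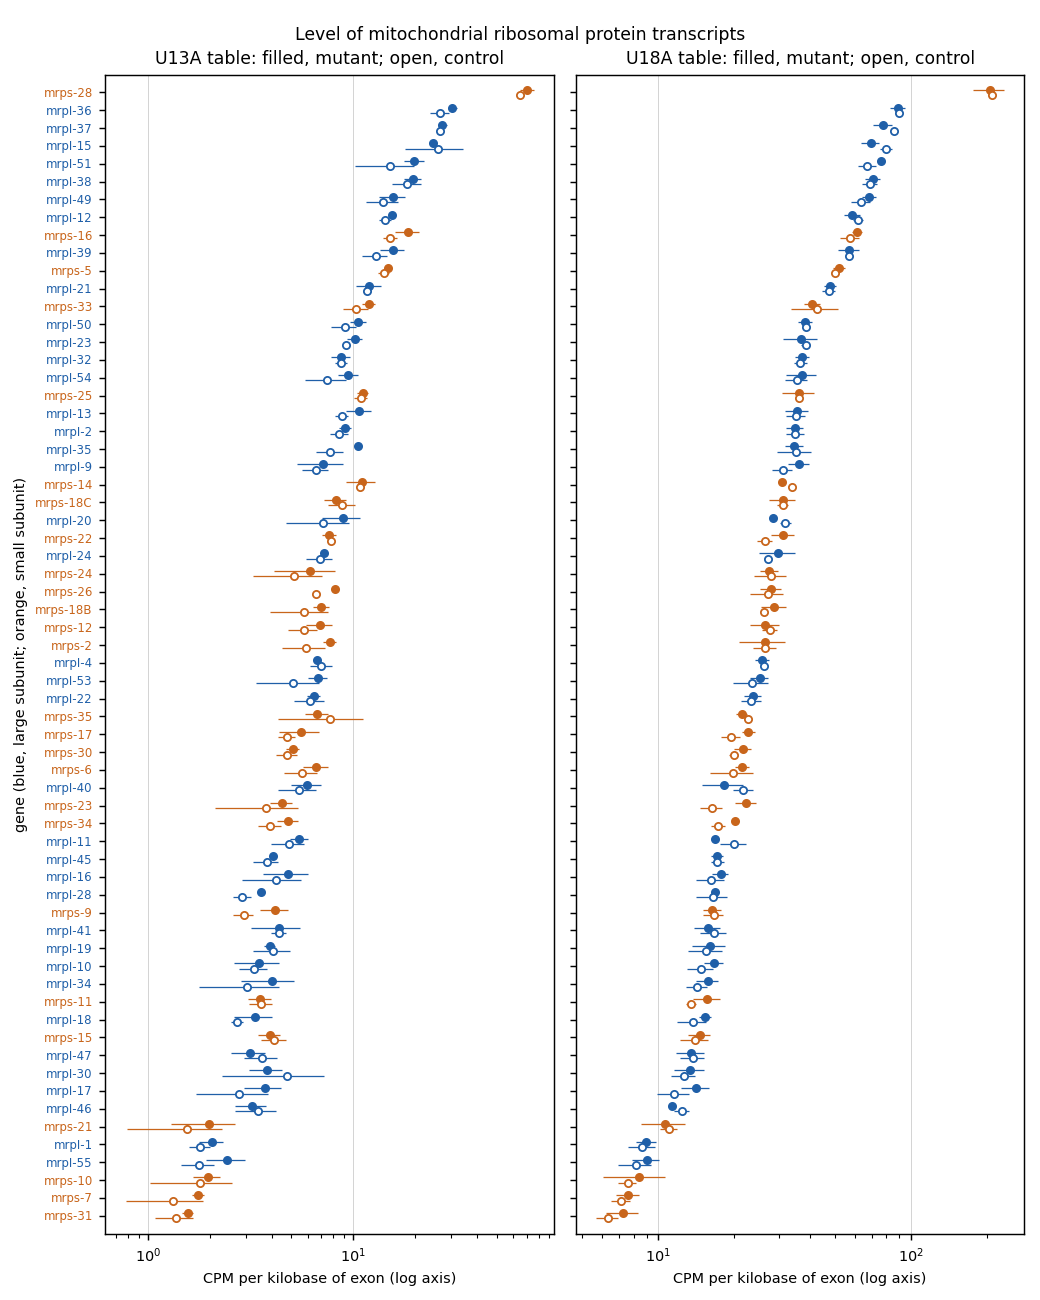
Transcript level of 64 mitochondrial ribosomal protein genes in CPM per kilobase of exon (log axis, means of 3 libraries, bars 1 SD), with large subunit genes in blue, small subunit genes in orange, mutants filled and controls open. The order, set by the U18A table, is led by mrps-28 and ends with mrps-31 in both panels, and filled and open points of a gene mostly lie within the bars.

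No mitochondrial ribosomal protein gene passed the threshold in the U13A comparison. With edgeR's quasi-likelihood test at an adjusted p of 0.05, 0 of 65 genes were called, where 1.55% of the 12044 genes tested were called (0.731% higher and 0.822% lower). An unadjusted p under 0.05 was reached by 3 of the 65 genes, against 12.6% of all tested genes, and DESeq2 called 0 of 65, where it called 1.83% of all. The estimates nevertheless lay mostly above 0, in 53 of 65 genes (33 of 39 large and 20 of 26 small), against 48.6% of all genes tested. They ran from -0.24 to 0.50 on the log2 scale, with a median of 0.14 in the large and 0.17 in the small subunit and of -0.01 over all genes. The precision allows a bound: the 95% interval lay within a 1.5-fold change either way for 34 genes and within 2-fold for 63.

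The gene with the largest U13A estimate was mrps-9, whose bacterial counterpart reaches with its tail to the tRNA in the decoding site. It had 6.31, 5.15 and 4.63 CPM in the U13A mutant libraries A to C, against 4.01, 3.98 and 3.30 CPM in the control libraries. The lowest mutant library was above the highest control library. The log2 change was 0.50 ± 0.17 (SE), with an edgeR adjusted p of 0.228 that misses the threshold and a 95% interval of 0.12 to 0.87. Without DG3913 C it was 0.43 ± 0.17, with an edgeR adjusted p of 0.235. In the U18A table the same gene had 21, 19.5 and 22.8 CPM in mutants and 20.7, 23.5 and 19.9 CPM in controls, overlapping throughout.

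For mrpl-35, of the large subunit, the U13A mutant libraries held 5.47, 5.84 and 5.69 CPM and the control libraries 4.05, 4.83 and 3.58 CPM. The groups did not overlap, and the log2 change of 0.42 ± 0.16 had an edgeR adjusted p of 0.281. Without DG3913 C the change was 0.34 ± 0.16. In the U18A table mrpl-35 was 18.5 ± 1.52 CPM in mutants and 18.8 ± 2.91 CPM in controls (SD, n = 3 each). Its exons share 51 bp with hmit-1.3 on the opposite strand.

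The third gene with an unadjusted p under 0.05 was mrps-26, named here after its values were seen. It had 11.6, 11.7 and 12.3 CPM in U13A mutants, against 9.29, 9.88 and 9.71 CPM in controls, with DG3913 C inside the range of its group mates. The log2 change was 0.30 ± 0.12 with all 6 libraries and 0.30 ± 0.12 without DG3913 C, with edgeR adjusted p-values of 0.305 and 0.234. Its human counterpart is a mitochondria-specific protein of the small subunit.

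The other large positive estimates were those of mrpl-55, mrpl-51 and mrps-2. mrpl-55, a mitochondria-specific protein in humans, had 0.97, 1.03 and 1.42 CPM in U13A mutants and 0.66, 0.88 and 0.94 CPM in controls, from 10 to 27 counts a library, and its log2 change was 0.48 ± 0.29 with DG3913 C and 0.54 ± 0.32 without it. mrpl-51 had 16.3, 13.9 and 13.3 CPM in mutants and 12.6, 13.4 and 6.97 CPM in controls, and here the low value is DG3913 C. Its log2 change of 0.37 ± 0.20 became 0.16 ± 0.12 without that library. mrps-2, of the small subunit platform in bacteria, had 6.84, 6.87 and 7.74 CPM in mutants and 5.70, 6.63 and 4.05 CPM in controls, and its change of 0.35 ± 0.17 became 0.21 ± 0.14 without DG3913 C.

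The groups did not overlap for 9 of the 65 genes, each of them higher in the U13A mutants, against 9.81% of all tested genes higher and 9.26% lower. These were mrpl-12, mrpl-14, mrpl-28, mrpl-35, mrpl-55, mrps-2, mrps-9, mrps-26 and mrps-34. No gene of the 65 was lower in all U13A mutant libraries. mrpl-12 is the flexible stalk protein that recruits translation factors in bacteria, and it had 10.2, 10.1 and 10.1 CPM in mutants and 8.68, 9.73 and 9.80 CPM in controls. Its log2 change was 0.11 ± 0.13, so the lack of overlap came with a small difference.

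Among the lowest U13A estimates, the negative sign of mrpl-30, mrps-35 and mrpl-15 rested on DG3913 C. mrpl-30 had 2.25, 2.98 and 3.26 CPM in mutants and 1.84, 3.30 and 5.47 CPM in controls. mrps-35 had 7.81, 10.1 and 9.42 CPM in mutants and 8.30, 7.39 and 15.9 CPM in controls. mrpl-15 had 24.5, 25.5 and 25.6 CPM in mutants and 21.1, 22.8 and 36.4 CPM in controls. In each gene the highest of the 6 libraries is DG3913 C, which stood 2.13-fold, 2.03-fold and 1.66-fold above the mean of its 2 group mates for mrpl-30, mrps-35 and mrpl-15.

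Leaving out that library turned the sign of all these estimates, although none was called either way. The log2 change of mrpl-30 was -0.24 ± 0.33 with it and 0.10 ± 0.24 without it. That of mrps-35 was -0.16 ± 0.26 and then 0.21 ± 0.14, and that of mrpl-15 was -0.07 ± 0.18 and then 0.20 ± 0.10. The exons of mrps-35 share 151 bp with sws-1 and those of mrpl-30 share 26 bp with strm-1, both on the opposite strand, and mrpl-15 shares none. In all, the sign differed with and without DG3913 C for 10 of 65 genes. The estimates of mrpl-46, mrps-15 and mrpl-4 also lay below 0 with it and above 0 without it (mrpl-46 at -0.05 ± 0.20 and then 0.10 ± 0.18), while those of mrps-23, mrpl-38, mrpl-10 and mrps-25 lay above 0 with it and below 0 without it. The remaining negative estimates named were mrpl-47 (-0.18 ± 0.21, and -0.15 ± 0.21 without DG3913 C), mrps-18C (-0.10 ± 0.15, and -0.02 ± 0.13) and mrpl-19 (-0.10 ± 0.18, and -0.20 ± 0.17), all with overlapping groups.

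**Figure D2:**
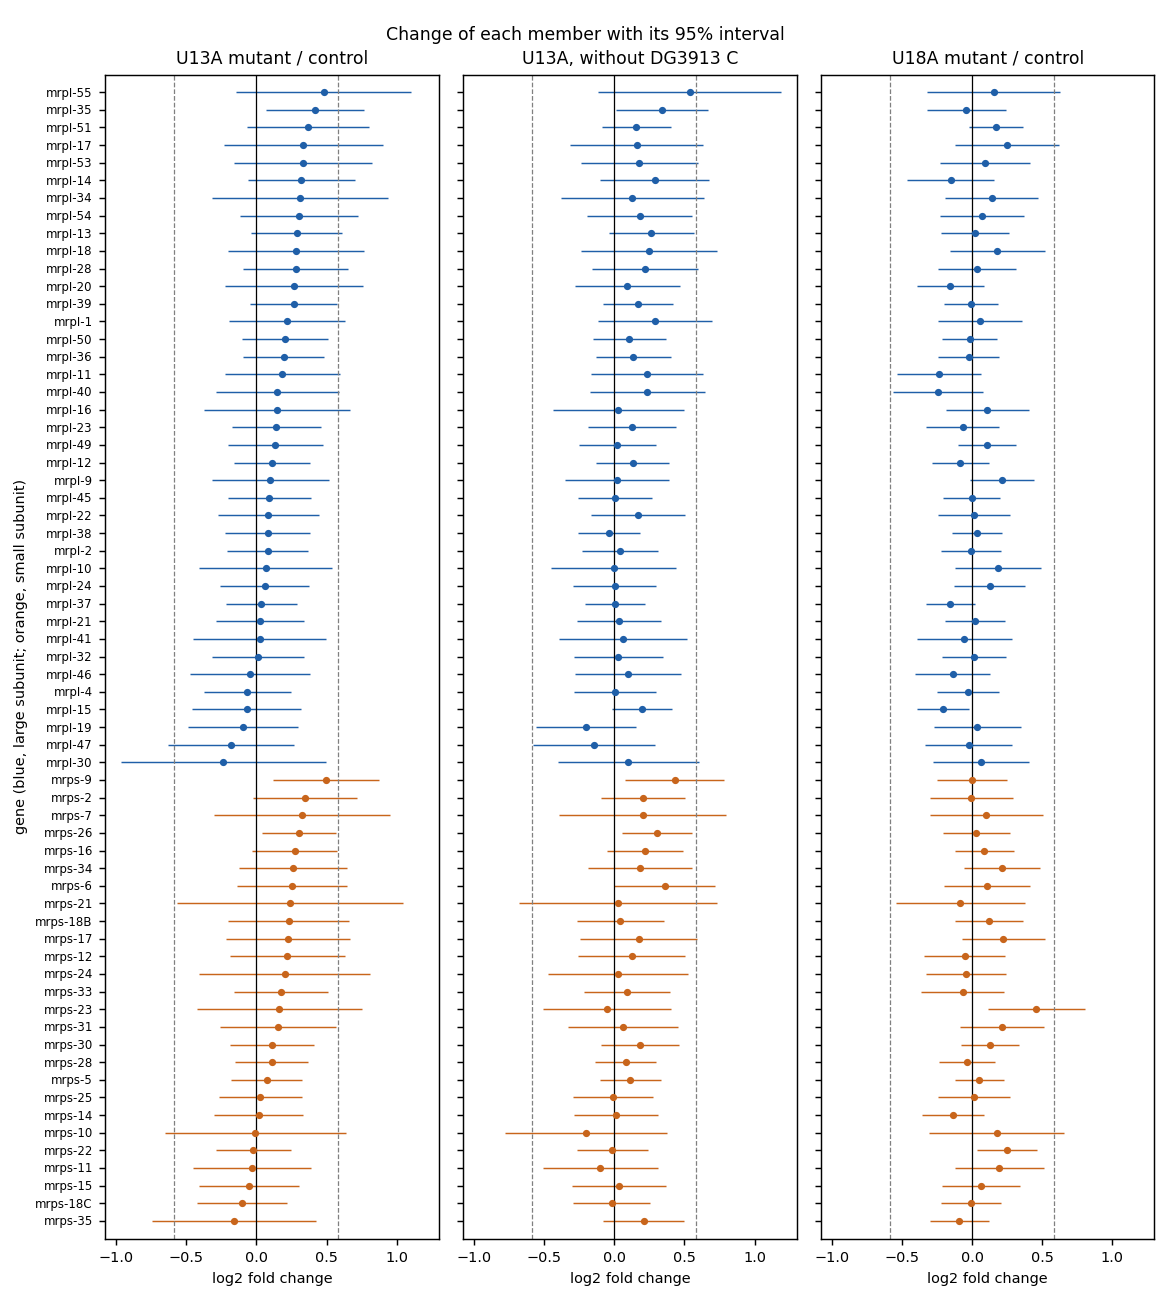
Log2 fold change of each of the 65 genes, mutant over control, with its 95% interval, for U13A, U13A without DG3913 C and U18A; dashed lines mark a 1.5-fold change. Most U13A points lie right of 0 with intervals that cross it, the U18A points lie on both sides of 0 with narrower intervals, and 10 genes, among them mrpl-30, mrps-35 and mrpl-15, change side without DG3913 C.

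Without DG3913 C, the U13A comparison still called 0 of 65 genes with edgeR, where 2.8% of 12521 tested genes were called (1.31% higher and 1.49% lower). An unadjusted p under 0.05 was reached by 3 of 65, against 13.3% of all. These 3 were again mrps-9, mrpl-35 and mrps-26. Estimates were above 0 in 55 of 65 genes, with a median log2 change of 0.13 in the large subunit, 0.09 in the small subunit and 0.00 over all genes. The interval lay within 1.5-fold for 47 genes, against 34 with that library. The groups did not overlap for 13 genes, all higher in mutants, where 13.9% of all genes were higher and 14.7% lower with 3 against 2 libraries. These were the 9 above and mrpl-1, mrpl-15, mrps-5 and mrps-6.

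DG3913 C itself held less of these transcripts than its group mates in 42 of 65 genes, against 52.0% of all tested genes. Measured the same way, 39 of 65 were lower in DG3913 A and 12 of 65 in DG3913 B. The ratio of CPM in DG3913 C to the mean of DG3913 A and B had a median of 0.892 in the large subunit and 0.836 in the small subunit, against 0.983 over all tested genes. It was lowest for mrps-21 (0.344), mrps-23 (0.404) and mrps-10 (0.445), all small subunit genes with few reads, of which mrps-21 had 3 counts in this library. The 12 mRNAs encoded by mitochondrial DNA went the other way, each higher in DG3913 C, by 2.21-fold to 3.30-fold with a median of 2.54. The 76 rows of cytosolic ribosomal proteins had a median ratio of 0.676 and 73 of them were below 1. The 31 nuclear genes listed for oxidative phosphorylation (OXPHOS) had a median of 0.863. They are not a full set, and the only cox genes among them are cox-10, cox-11, cox-15 and cox-17.

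The summed mRNAs of mitochondrial DNA were 63.3 times the summed 65 genes in DG3913 C, against 22.8 to 28.5 times in the other 5 libraries of the table. For the summed levels the subunits differed little between DG3913 C and its mates. The large subunit summed to 266.6 CPM in DG3913 C, against 269.6 and 294.6 CPM in DG3913 A and B, and the small subunit to 188 CPM, against 184.8 and 194.5 CPM. The part of this library's other differences in the values of single genes was not tested.

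**Figure D3:**
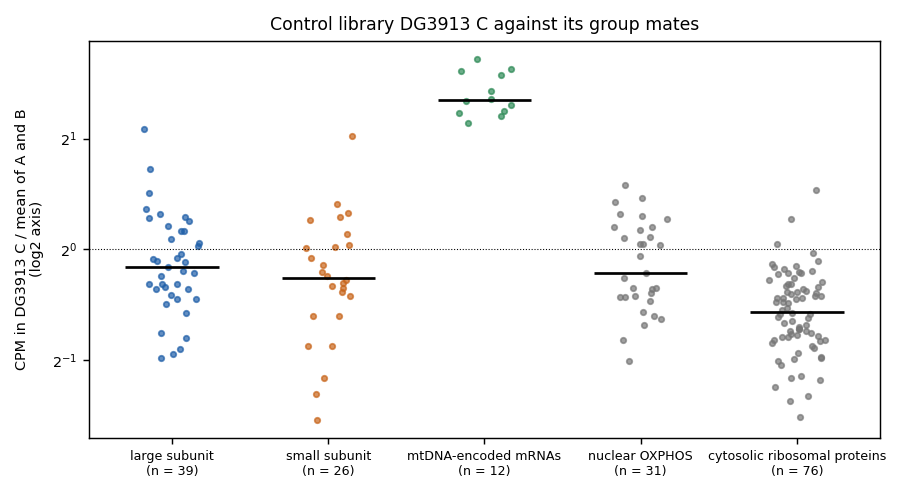
Ratio of CPM in control library DG3913 C to the mean of DG3913 A and B (log2 axis), 1 point a gene, with the median as a bar. Both mitochondrial ribosomal subunits centre slightly below 1 and scatter widely, all 12 mRNAs of mitochondrial DNA lie above 2, and most cytosolic ribosomal protein genes lie below 1.

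In the U18A comparison, too, no gene passed the threshold. edgeR called 0 of 65 genes, where 8.16% of the 12689 tested genes were called (2.29% higher and 5.88% lower), and DESeq2 called 0, where it called 5.72% of all. An unadjusted p under 0.05 was reached by 3 of 65 genes, against 21.5% of all tested genes. The estimates lay on both sides of 0, above it in 37 genes (21 of 39 large and 16 of 26 small) and between -0.24 and 0.46. The median log2 change was 0.01 in the large and 0.06 in the small subunit, beside 0.01 over all genes. The 95% interval lay within a 1.5-fold change for 61 of 65 genes and within 2-fold for all 65.

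The largest U18A estimate was that of mrps-23, which in humans is a mitochondria-specific protein of the small subunit. It had 10.2, 8.99 and 10.8 CPM in U18A mutants, against 7.89, 6.5 and 7.56 CPM in controls. Every mutant library was above every control library, and the log2 change was 0.46 ± 0.16 with an edgeR adjusted p of 0.102, above the threshold. In the U13A table mrps-23 had 2.21, 2.12 and 1.74 CPM in mutants and 2.17, 2.03 and 0.848 CPM in controls, where the low library is DG3913 C, with 9 counts. The U13A change was 0.16 ± 0.27 with it and -0.05 ± 0.22 without it.

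mrps-22, another mitochondria-specific small subunit protein in humans, had 44.9, 39.7 and 49.3 CPM in U18A mutants and 40.8, 35.7 and 36.8 CPM in controls. The groups overlap, and the log2 change was 0.25 ± 0.10 with an edgeR adjusted p of 0.155. For mrpl-15 the direction was the opposite: 76.7, 72.1 and 65.1 CPM in U18A mutants against 82.5, 86.8 and 77.4 CPM in controls, with no overlap. Its log2 change was -0.21 ± 0.09, with an edgeR adjusted p of 0.176.

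The other 3 of the 5 highest U18A estimates were those of mrpl-17 (0.25 ± 0.18), mrps-17 (0.22 ± 0.14) and mrps-31 (0.21 ± 0.14). On the negative side, mrpl-40 had 14.7, 10.5 and 11.3 CPM in U18A mutants and 15.8, 14.5 and 13.1 CPM in controls, a log2 change of -0.24 ± 0.15 with overlapping groups. mrpl-11, which in bacteria lies where translation factors hydrolyse GTP, had 11.5, 11.2 and 12 CPM in mutants and 12.1, 15.3 and 13.8 CPM in controls, a change of -0.24 ± 0.14. mrpl-37 and mrpl-20 had -0.16 ± 0.08 and -0.16 ± 0.11.

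The U18A groups did not overlap for 8 genes. Of these mrpl-9, mrpl-51, mrps-23 and mrps-34 were higher in mutants and mrpl-11, mrpl-15, mrpl-20 and mrps-14 lower. The 4 higher and 4 lower of 65 stand beside 12.3% higher and 14.8% lower of all tested genes. mrps-34, of the small subunit, was higher in every mutant library in both tables, with 4.41, 3.84 and 3.48 CPM in U13A mutants against 3.44, 3.45 and 2.73 CPM in controls, and 15.7, 16.8 and 16.4 CPM in U18A mutants against 14.4, 13 and 14.6 CPM in controls. Its log2 changes were 0.26 ± 0.18 (0.19 ± 0.18 without DG3913 C) and 0.21 ± 0.13, none of them called.

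The best studied member, mrps-5, was called in neither comparison. It had 22.2, 20.7 and 22.3 CPM in U13A mutants and 20.6, 19.5 and 22.1 CPM in controls, and 76.1, 80.7 and 72.2 CPM in U18A mutants and 74.0, 72.9 and 73.8 CPM in controls. The groups overlap in both tables, in U13A at DG3913 C only. The log2 change was 0.07 for U13A, with a 95% interval of -0.18 to 0.32, and 0.05 for U18A, with an interval of -0.12 to 0.22. Without DG3913 C the U13A change was 0.11, with an interval of -0.10 to 0.33.

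The effects of the 2 mutants, each against its own control, were also compared in 1 fit to all 12 libraries. The difference, U13A effect minus U18A effect, was called for 0 of 65 genes with edgeR, where 1.96% of 14155 genes were called (1.63% higher and 0.332% lower), and for 0 with DESeq2, which called 2.15% of all. An unadjusted p under 0.05 was reached by 3 of 65 genes, against 12.2% of all, namely mrps-9 (0.52 ± 0.21), mrpl-35 (0.47 ± 0.21) and mrpl-14 (0.49 ± 0.22), with a lowest edgeR adjusted p of 0.269. Estimates were above 0 in 50 of 65 genes, with a median of 0.17 in the large and 0.10 in the small subunit beside 0.01 over all genes. The lowest estimate was that of mrps-23 (-0.28 ± 0.31). The interval lay within 1.5-fold for 25 genes and within 2-fold for 62. Without DG3913 C the difference was again called for 0 of 65 genes, where 2.46% of all were called (1.89% higher and 0.569% lower), with medians of 0.13 and 0.09. The genes with an unadjusted p under 0.05 were then mrps-9, mrpl-15 and mrpl-11, 3 of 65, against 13.1% of all. The lowest edgeR adjusted p was then 0.0863, for mrpl-15, with a difference of 0.43 ± 0.13 against 0.17 ± 0.21 with all libraries.

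The 2 subunits were set against each other by their summed levels in each library, without a test. Summed over its genes, the large subunit had 312.4, 296.4 and 292.7 CPM in U13A mutants and 269.6, 294.6 and 266.6 CPM in controls, which overlap at DG3913 B only. The small subunit had 204.2, 209.2 and 202.5 CPM in U13A mutants and 184.8, 194.5 and 188 CPM in controls, with no overlap, also when DG3913 C is set aside. The means were 300.5 ± 10.5 and 276.9 ± 15.4 CPM for the large subunit and 205.3 ± 3.48 and 189.1 ± 4.94 CPM for the small subunit (SD, n = 3 each).

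Some tissue markers lay the same way as the U13A subunit sums. edgeR called 0 of the body muscle and sperm markers in U13A, and 0 of 6 and 2 of 8 had an unadjusted p under 0.05, against 12.6% of all genes. The 6 body muscle genes summed to 1553 to 1574 CPM in U13A mutants and 1146 to 1542 CPM in controls, or 1439 to 1542 CPM in controls without DG3913 C, with no overlap either way. Taken singly, 4 of the 6 had estimates above 0, with a median log2 change of 0.06. Without DG3913 C these were 5 of 6 and 0.04. The 8 sperm genes summed to 249.8 to 282.6 CPM in mutants and 165 to 250.7 CPM in controls, or 237.6 to 250.7 CPM without DG3913 C. All 8 had estimates above 0, with a median log2 change of 0.24, and 5 of 8 without DG3913 C, with a median of 0.13. The summed markers of sperm, germline, intestine, neuron and pharynx overlapped between the U13A groups, with and without DG3913 C. The part of these in the subunit sums was not tested.

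In the U18A table the large subunit summed to 1085, 1099 and 1051 CPM in mutants and 1053, 1088 and 1117 CPM in controls. The small subunit summed to 714.2, 750.1 and 704.6 CPM in mutants and 699.9, 682.7 and 718.3 CPM in controls. Both subunits overlap between the groups there.

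The ratio of large to small subunit counts lay between 1.42 and 1.59 in all 12 libraries. It was 1.53, 1.42 and 1.45 in U13A mutants and 1.46, 1.51 and 1.42 in their controls, with means of 1.46 ± 0.0585 and 1.46 ± 0.0485. Without DG3913 C the control mean was 1.49. In U18A it was 1.52, 1.47 and 1.49 in mutants and 1.5, 1.59 and 1.56 in controls, with means of 1.49 ± 0.0273 and 1.55 ± 0.0448 and an overlap at VT1367 A. The human counterpart of mrps-30 lies in the large subunit. Counted there, it leaves the U13A medians at 0.14 for the large and 0.18 for the small subunit (0.13 and 0.08 without DG3913 C) and the U18A medians at 0.02 and 0.05.

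**Figure D4:**
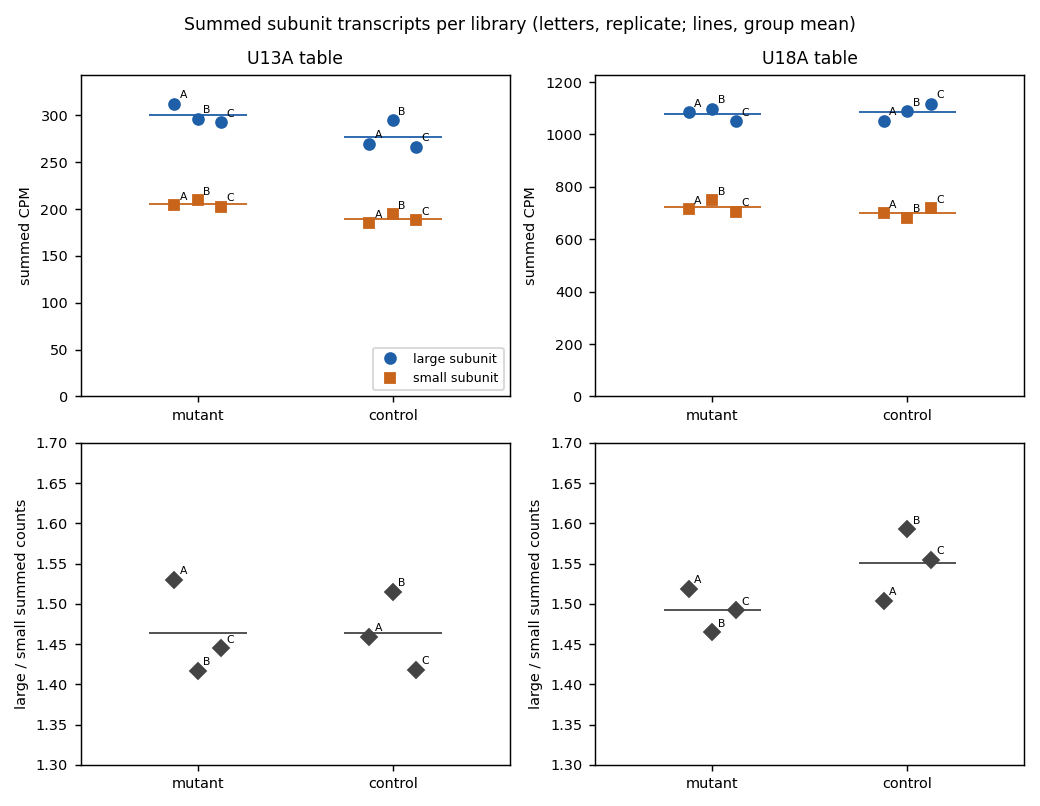
Summed CPM of the 39 large subunit and 26 small subunit genes in each library (upper row) and the ratio of their summed counts (lower row), mutants left and controls right, with the group mean as a line. Small subunit sums of U13A mutants, 202.5 to 209.2 CPM, lie above the 184.8 to 194.5 CPM of the controls, the U18A sums overlap, and the ratio stays between 1.42 and 1.59.

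edgeR called no gene of 4 other mitochondrial lists in U13A, with or without DG3913 C, or in U18A. Shares with an unadjusted p under 0.05 are read beside 12.6% of all genes in U13A, 13.3% without DG3913 C and 21.5% in U18A. The list of mitochondrial translation factors also held other mitochondrial genes, such as oxa-1 and letm-1. The 11 genes found were tufm-1, tufm-2, tsfm-1, gfm-1, mrrf-1, oxa-1, letm-1, mtg-1, eral-1, noa-1 and mma-1. Their median log2 changes were 0.08 in U13A, 0.08 without DG3913 C and 0.09 in U18A, with 1, 1 and 3 genes at an unadjusted p under 0.05. The 10 mitochondrial tRNA synthetases, which charge the tRNAs used in the organelle, had medians of 0.10 in U13A, 0.04 without DG3913 C and -0.05 in U18A, and 0 genes at an unadjusted p under 0.05 in each. The 6 genes of mitochondrial DNA maintenance and transcription had medians of 0.01, 0.00 and 0.05 in the same order, and 0 reached an unadjusted p under 0.05.

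The 11 genes of the mitochondrial unfolded protein response had a median log2 change of 0.04 in U13A with 7 above 0, of 0.09 without DG3913 C with 9 above 0, and of 0.04 in U18A with 7 above 0. Of these, 0, 0 and 2 had an unadjusted p under 0.05. The chaperone gene hsp-60 had 251.6, 333.3 and 330.6 CPM in U13A mutants, against 245.2, 279.6 and 601 CPM in controls, the highest in DG3913 C. Its log2 change was -0.30 ± 0.31 with that library and 0.22 ± 0.13 without it. The chaperone gene hsp-6 had 0.04 ± 0.15 and then 0.13 ± 0.11.

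The 12 mRNAs of mitochondrial DNA, which this ribosome translates, depended on DG3913 C in the U13A comparison. edgeR called 0 of 12. With all libraries each of the 12 had an estimate below 0, with a median log2 change of -0.40, and without DG3913 C each had one above 0, with a median of 0.23 and again 0 called. An unadjusted p under 0.05 was reached by 0 of 12 with DG3913 C, against 12.6% of all genes, and by 5 of 12 without it, against 13.3% of all. Summed, they made 11777, 13533 and 14093 CPM in U13A mutants, against 11884, 11341 and 28792 CPM in controls. In U18A the median was 0.05, with 7 of 12 above 0.

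The listed nuclear OXPHOS genes, of which only some encode proteins that assemble with those encoded by mitochondrial DNA, had median log2 changes of 0.13 in U13A and -0.03 in U18A. edgeR called 0 of 31 in both, and 4 and 2 had an unadjusted p under 0.05, against 12.6% and 21.5% of all genes. Without DG3913 C the U13A median was 0.09, and 1 gene was lower in mutants, cyc-2.1, which encodes a cytochrome c (-0.58 ± 0.11, edgeR adjusted p 0.00299), where 1.49% of all genes were lower. It was also the 1 OXPHOS gene called in the difference without DG3913 C (-0.51 ± 0.13, edgeR adjusted p 0.0329), where 0.569% of all genes were lower. With all libraries 0 of 31 were called in the difference and 2 had an unadjusted p under 0.05, against 12.2% of all genes. Of the 76 cytosolic ribosomal protein rows, 0 were called by edgeR in U13A and 16 had an unadjusted p under 0.05, against 12.6% of all genes. Without DG3913 C 0 were called and 14 had an unadjusted p under 0.05, against 13.3% of all. Their median was 0.33 with DG3913 C and 0.15 without it. In U18A their median was -0.07 and 1 of 76 was lower, rpl-11.2 (-0.39 ± 0.10, edgeR adjusted p 0.0167), against 5.88% of all genes. In the difference 1 of 76 was higher, rpl-43 (0.67 ± 0.16, edgeR adjusted p 0.0237), against 1.63% of all genes. Without DG3913 C 3 of 76 were higher in the difference, against 1.89% of all genes. These were rpl-43 (0.60 ± 0.13, edgeR adjusted p 0.00918), rps-2 (0.57 ± 0.15, edgeR adjusted p 0.0383) and rpl-11.2 (0.68 ± 0.15, edgeR adjusted p 0.00884).

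Of the tissue markers, only those of the hypodermis were called by edgeR in U13A or U18A. All 5 of its collagen genes were lower in U18A mutants with edgeR, against 5.88% of all genes. They ran from dpy-7 (-1.89 ± 0.35, edgeR adjusted p 0.0169) to rol-6 (-1.25 ± 0.23, edgeR adjusted p 0.022). Their sum was 297 to 379 CPM in mutants and 724 to 1101 CPM in controls. In U13A 1 of 5 was lower, dpy-13 (-0.97 ± 0.18, edgeR adjusted p 0.019), against 0.822% of all genes. This call was lost without DG3913 C (-1.02 ± 0.23, edgeR adjusted p 0.107). Taken singly, 2 of the 5 had U13A estimates above 0, up to 0.64, with a median log2 change of -0.004. Without DG3913 C these were 1 of 5, at 0.50, and a median of -0.08. The hypodermis sum was 52.3 to 85.2 CPM in U13A mutants and 75.6 to 99.3 CPM in controls, or 90.8 to 99.3 CPM in controls without DG3913 C. The part of these in the values of the mitochondrial ribosomal protein genes was not tested.

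**Figure D5:**
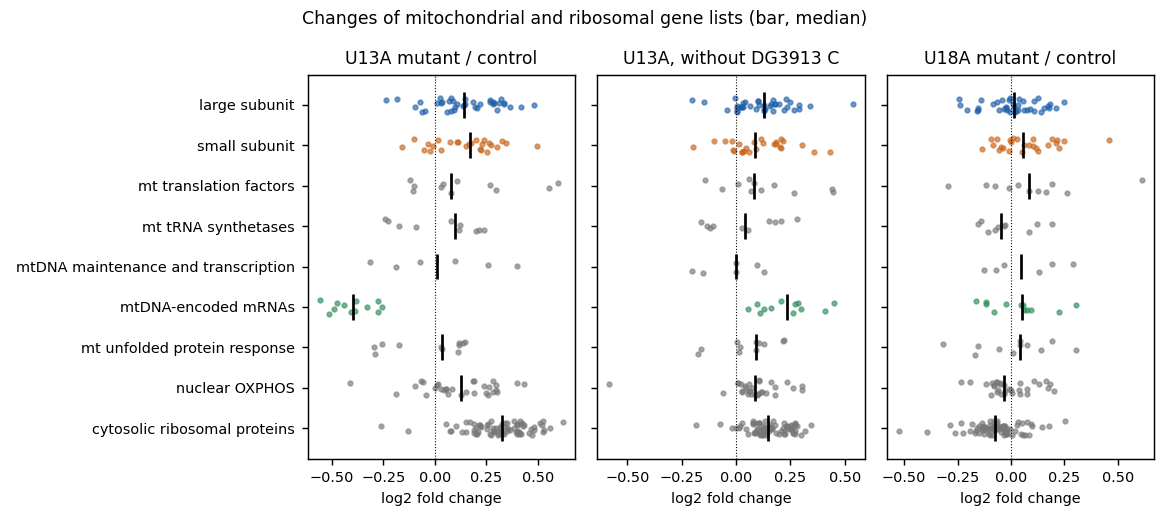
Log2 fold changes, mutant over control, of the genes of each list, 1 point a gene, with the median as a bar, for U13A, U13A without DG3913 C and U18A. The 12 mRNAs of mitochondrial DNA lie left of 0 with DG3913 C and right of 0 without it, while both mitochondrial ribosomal subunits keep medians between 0.09 and 0.17 in the 2 U13A panels and near 0 in U18A.

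In the WBcel235 annotation the 64 located genes lie on the autosomes only. There are 14 on chromosome I, 11 on II, 20 on III, 10 on IV, 9 on V and 0 on X, where X holds 13.3% and III 16.7% of the tested protein-coding genes. Chromosome III thus holds 31.3% of the located genes. Their exons are short, with a median length of 755 bp against 1436 bp for tested protein-coding genes.

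Many lie close behind another gene on the same strand, the arrangement of worm operons, whose genes are transcribed together. A protein-coding gene ended within 500 bp upstream for 24 of 64 genes (37.5%), 13 of 38 large and 11 of 26 small, against 19.7% of tested protein-coding genes. No operon annotation was used. mrps-22 (II, 10582618 to 10584236, plus strand) begins 105 bp behind dap-3, whose human counterpart is itself a small subunit protein. dap-3 had 7.85, 8.19 and 7.42 CPM in U13A mutants, against 7.07, 7.20 and 11.6 CPM in controls, with DG3913 C the highest, and a log2 change of -0.10 ± 0.18, or 0.13 ± 0.13 without it. In U18A it had 30.8, 33.6 and 31.7 CPM in mutants and 29.8, 30.3 and 30.3 CPM in controls, a change of 0.09 ± 0.10.

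mrps-5 (V, 12563487 to 12565801, plus strand) lies 103 bp behind sel-1. mrps-9 (III, 8266062 to 8267841, plus strand) lies 256 bp behind ncr-2, and mrps-26 (III, 5234612 to 5236364, plus strand) lies 81 bp behind prmt-5. mrpl-35 (III, 3510237 to 3510974, plus strand), mrps-23 (III, 9523121 to 9523672, minus strand) and mrpl-15 (I, 1436279 to 1441334, plus strand) have no such neighbour. Of the 64 genes, 16 share exon sequence with another annotated gene, 13 on the opposite and 3 on the same strand, so their counts are less certain.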

How the data were processed

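The authors deposited raw read counts per gene in 2 tables, one for each mutant with its control, with every column matched to 1 library by strain and letter. Per the submitters' processing notes, cutadapt 1.9, Bowtie2 2.3.4.3 and featureCounts (Subread 1.6.2) were used. The genome build, annotation, strand setting and treatment of multiply mapped reads are not given in the sources used here. Counts were tested on whole tables in R 4.3.3 with edgeR 4.0.16 (quasi-likelihood, robust, 2-sided), after filterByExpr (minimum count 10, minimum total 15) and TMM scaling, with Benjamini-Hochberg adjustment over all tested genes and a threshold of 0.05. U13A and U18A were fitted on 6 libraries each and their difference on 12. Standard errors are the log2 change over the square root of F. The 95% intervals use the total degrees of freedom of edgeR's test, which are the residual ones plus those gained from the spread shared between genes. No 2 libraries of a group agreed within counting noise in a chi-square comparison. Simulated counts with known changes were used to check the scripts.

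Gene names follow the files. Positions and exon lengths are from WBcel235 (Ensembl release 115), and list symbols that the files lack were matched through the RefSeq table of that assembly for 7 genes, with 7 not found. The 65 genes, the lists and the alternatives were chosen with earlier results of these data known. Genes named are the 5 largest estimates each way in U13A and in U18A, but not in their difference. Also named are mrps-5, the 5 highest and 3 lowest levels per subunit and list genes past the threshold. Further genes were picked after looking at the values. Alternatives tried were RLE factors, unscaled totals, removal of the 10 most abundant entries, no filter, a minimum mean of 10 counts, DESeq2 1.42.0, a replicate block, all libraries in 1 fit, a threshold of 0.01, and leaving out each library. Figures were drawn with matplotlib 3.10.9.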

Additional observations from a re-analysis of the deposited data

How the results depend on the processing

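Under every alternative run, 0 of the 65 genes were called in U13A, U18A and the difference, including DESeq2 and each library left out in turn. A threshold of 0.01 could not have called a gene that 0.05 did not. The count of all genes called was 187 in U13A, and moved to 32 with unscaled totals, 543 with no filter, 390 with the replicate block, 430 in 1 fit to all libraries and 38 to 350 with a library left out (38 without VT3878 B, 39 without VT3878 A, 61 without DG3913 A). In U18A it was 1036, and moved to 548 without VT1367 A, 619 without VT1367 B and 699 in 1 fit. In the difference it was 278, and moved to 473 with no filter and 176 to 342 with a library left out. The lowest adjusted p of any of the 65 over these alternatives was 0.0805 in U13A, 0.0764 in U18A and 0.0863 in the difference. Between 0 and 10 genes had an unadjusted p under 0.05 in U13A, 0 to 5 in U18A and 0 to 6 in the difference. Median log2 changes ran from 0.10 to 0.29 (large) and 0.09 to 0.33 (small) in U13A, and from -0.02 to 0.05 and 0.04 to 0.10 in U18A. With unscaled totals the U13A medians were 0.29 for the large and 0.33 for the small subunit, where the median of all tested genes moved to 0.17. The replicate block called 0 genes in each comparison, with U13A medians of 0.15 and 0.20. In a pairing check, which did not correlate the levels themselves, Pearson's r between mutant and control of the same letter was 0.01, -0.04 and 0.12 in U13A. It was 0.06, -0.01 and 0.13 in U18A. Between different letters it ran from -0.20 to 0.24 in U13A and from -0.12 to 0.06 in U18A. The letters were therefore not taken as pairs. Of the 33 genes named by rule, estimates changed sign in 36 of 495 values in U13A, 39 of 462 in U18A and 39 of 627 in the difference, with 0 past the threshold. Low counts, from 3 in a library upward, limit what could be detected in the least abundant genes.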

Other observations

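Rows outside the naming rule hold further proteins of this ribosome. RefSeq gives mrpl or mrps names to 5 rows that the files list by sequence name, K11B4.1 (mrps-27), T14B4.2 (mrps-18.C), R02F2.9 (mrpl-58), F02A9.4 (mrpl-44) and CD4.3 (mrpl-48). They were added after the data were seen. edgeR called 0 of 5 in U13A, U18A and the difference, where 1.55%, 8.16% and 1.96% of all tested genes were called. An unadjusted p under 0.05 was reached by 0, 2 and 1 of the 5, against 12.6%, 21.5% and 12.2% of all. Median log2 changes were 0.18 in U13A, 0.11 without DG3913 C and 0.12 in U18A. The U18A groups did not overlap for 2 genes higher and 1 lower in mutants, beside 12.3% higher and 14.8% lower of all tested genes. F02A9.4 had 49.7, 49 and 48.2 CPM in U13A mutants and 43, 47.7 and 51.9 CPM in controls, and 185.6, 188.6 and 190.7 CPM in U18A mutants and 171.9, 174.2 and 174.1 CPM in controls. The U18A groups did not overlap, with a log2 change of 0.12 ± 0.07 that was not called. The exons of F02A9.4 share 166 bp with mccc-2 and those of K11B4.1 share 105 bp with hinf-1, both on the same strand. How reads there were assigned is not given in the sources used here.

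K11B4.1 had 22.0, 20.9 and 24.8 CPM in U18A mutants and 27.8, 25.7 and 27.9 CPM in controls, a log2 change of -0.26 ± 0.11 with an edgeR adjusted p of 0.172. CD4.3 had 18.3, 17.3 and 20.2 CPM in U18A mutants and 13.7, 16.4 and 16.1 CPM in controls, a log2 change of 0.28 ± 0.13 with an edgeR adjusted p of 0.213. A row that joins mrps-18A with iglr-2 had 28.6, 30.1 and 28.4 CPM in U13A mutants and 24.1, 26.6 and 33.8 CPM in controls, the highest again in DG3913 C. Its log2 change was 0.05 ± 0.14 with that library and 0.19 ± 0.10 without it. In U18A it had 109.2, 122.1 and 129.5 CPM in mutants and 100, 111.7 and 108.3 CPM in controls, a change of 0.17 ± 0.09. The reads of the 2 genes in that row cannot be told apart.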
